A study of Rattus norvegicus with 12 samples.

Results

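The genes described here are the chromatin remodelers and histone methylation enzymes of cultured rat hippocampal neurons: 49 of the 10730 genes in the deposited expression table. A gene was taken when its symbol began with Kdm, Kmt, Smarc, Arid or Setd, or with Chd or Brd followed by a digit. Within the table the choice thus rests on names and not on measured values. The table itself appears to have been limited to genes expressed in 1 library, Ctrl_TTX replicate 1 (groups are defined below). Of the members, 2 are grouped as H3K4 methyltransferases, Setd7 and the MLL-family protein Kmt2e. The others are 6 other lysine methyltransferases and SETD proteins, 4 H3K4 demethylases, 8 demethylases of H3K9, H3K27 or H3K36, 11 SWI/SNF (BAF) subunits, 4 other SNF2-like ATPases, 5 CHD remodelers, 4 bromodomain proteins and 5 other ARID proteins. Polyadenylated RNA was sequenced from 12 libraries, 3 in each of 4 groups. All neurons came from the hippocampi of male and female CD (Sprague Dawley) IGS rat embryos at E18.5, were infected with lentivirus after 1 day in vitro, and were held from day 5 for 48 h in 1 µM tetrodotoxin (TTX), which blocks voltage-gated sodium channels and so stops spiking. KD_TTXwd neurons carried an shRNA against Grin3a in the vector pLKO.1 and were collected 6 h after TTX withdrawal. Ctrl_TTXwd neurons carried the empty pLKO.1 vector, per the labels' protocol, and were collected at the same time after withdrawal. KD_TTX and Ctrl_TTX neurons carried the shRNA and the empty vector and were collected in TTX on day 7. Grin3a encodes GluN3A, an NMDA receptor subunit, and the series asks how GluN3A bears on the transcription that returning synaptic activity induces. The deposited table heads the control columns scr, which it does not explain, so whether the control vector held a hairpin cannot be told from these sources and bears on every knockdown comparison. A single hairpin against Grin3a was used, and the submitters call the libraries of a group biological triplicates without saying whether they came from separate cultures or litters, so p-values measure only the spread between these libraries.

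Histone methyltransferases and demethylases write and erase methyl groups on histone lysines, and each mark is read by other proteins: methylated H3K4 lies at active promoters and enhancers, whereas methylated H3K9 and H3K27 mark silent chromatin. Remodelers use ATP to slide or evict nucleosomes, and bromodomain proteins bind acetylated histones. Neurons assemble their own form of the BAF complex when they leave the cell cycle, and mutations in many of these genes cause intellectual disability or autism in humans.

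The promoters of 6 of the 7 members whose RNA moved the same way after TTX withdrawal in both genotypes (all but Setd7) are shown here as RefSeq gives them for build GRCr8, 300 bases from 250 before to 50 after the start, 5′ to 3′ on the gene's own strand. Kdm6b lies at chr10:54640965-54641264 (minus strand), Arid1a at chr5:151265337-151265636 (minus), Smarca4 at chr8:28443569-28443868 (plus), Chd5 at chr5:168130862-168131161 (plus), Brd3 at chr3:31193564-31193863 (minus) and Kdm8 at chr1:189444382-189444681 (plus). Capitals mark the GC box GGGCGG, the core of Sp-family sites, on either strand, so that it also reads as CCGCCC. The short CRE motif TGACG, which would also be in capitals, is in none of these 6 windows.
Kdm6b: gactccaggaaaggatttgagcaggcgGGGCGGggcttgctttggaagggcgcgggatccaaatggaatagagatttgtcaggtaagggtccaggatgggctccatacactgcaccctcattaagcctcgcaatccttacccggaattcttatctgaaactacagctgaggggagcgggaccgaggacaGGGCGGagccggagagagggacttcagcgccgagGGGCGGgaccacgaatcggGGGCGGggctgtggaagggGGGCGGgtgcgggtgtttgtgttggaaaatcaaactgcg
Arid1a: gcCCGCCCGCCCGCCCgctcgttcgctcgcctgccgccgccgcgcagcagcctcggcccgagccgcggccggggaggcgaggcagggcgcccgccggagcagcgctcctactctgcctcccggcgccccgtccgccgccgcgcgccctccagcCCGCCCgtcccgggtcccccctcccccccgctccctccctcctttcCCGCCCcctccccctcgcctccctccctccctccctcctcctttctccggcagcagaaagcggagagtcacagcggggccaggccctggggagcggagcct
Smarca4: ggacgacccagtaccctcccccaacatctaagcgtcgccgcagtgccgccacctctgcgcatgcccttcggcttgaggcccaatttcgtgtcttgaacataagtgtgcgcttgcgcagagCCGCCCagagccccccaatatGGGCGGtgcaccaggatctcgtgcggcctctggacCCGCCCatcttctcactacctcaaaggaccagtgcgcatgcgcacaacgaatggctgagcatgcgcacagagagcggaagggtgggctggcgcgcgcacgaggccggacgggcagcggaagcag
Chd5: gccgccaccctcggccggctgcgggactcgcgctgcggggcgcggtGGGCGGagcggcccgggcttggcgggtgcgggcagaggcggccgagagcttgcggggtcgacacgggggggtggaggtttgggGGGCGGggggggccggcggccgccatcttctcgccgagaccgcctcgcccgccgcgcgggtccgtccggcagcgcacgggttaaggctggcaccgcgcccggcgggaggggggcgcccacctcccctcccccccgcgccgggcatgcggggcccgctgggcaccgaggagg
Brd3: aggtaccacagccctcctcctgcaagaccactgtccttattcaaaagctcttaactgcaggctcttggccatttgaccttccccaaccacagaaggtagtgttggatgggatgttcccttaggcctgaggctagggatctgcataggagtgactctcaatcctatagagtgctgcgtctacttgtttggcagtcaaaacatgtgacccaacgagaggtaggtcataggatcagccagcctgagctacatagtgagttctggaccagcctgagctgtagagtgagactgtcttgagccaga
Kdm8: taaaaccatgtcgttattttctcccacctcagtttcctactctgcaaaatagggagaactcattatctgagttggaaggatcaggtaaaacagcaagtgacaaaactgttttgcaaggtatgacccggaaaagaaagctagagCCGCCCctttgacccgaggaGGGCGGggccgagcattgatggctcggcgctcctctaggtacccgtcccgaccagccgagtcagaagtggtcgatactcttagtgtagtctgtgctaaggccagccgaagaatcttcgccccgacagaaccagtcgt
Kdm6b and Arid1a held 5 GC boxes each, Smarca4 held 3, Chd5 and Kdm8 held 2 and Brd3 held none. A promoter was matched for 43 of the 49 members, and 30 of these (69.8%) held a GC box, against 63.6% of the matched promoters of all genes in the deposited table and 33.1% of all 33469 RefSeq promoters. TGACG was found on either strand in 11 of the 43 (25.6%), against 32.2% of the table's promoters and 21.2% of all promoters. Members held a median of 25 CG dinucleotides per promoter, against 21 for genes of the table and 7 for all promoters. These matches describe letters in 300 bases and show no binding.

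Expression is given as the authors' FPKM, fragment counts scaled by transcript length and library size, and a change is the difference between group means of log2(FPKM + 1), a scale that shrinks the fold of low genes. limma's moderated test was run over 10689 genes and 12 libraries, with p-values adjusted by Benjamini-Hochberg over all genes tested and called below 0.05. The read depth behind each value is unknown, and FPKM summed to 428070 to 517703 per library. Grin3a stood at 9.30, 6.01 and 4.77 FPKM in KD_TTX, against 18.6, 18.2 and 23.0 in Ctrl_TTX (33.6% left, exact two-sided permutation p 0.1, the smallest possible), and at 5.22, 3.32 and 2.50 in KD_TTXwd, against 13.8, 19.8 and 4.88 in Ctrl_TTXwd (28.7% left, exact permutation p 0.2). The groups did not overlap in TTX, whereas Ctrl_TTXwd replicate 3 lay within the knockdown range. That library also had the lowest sum of 12 glutamatergic markers (215 FPKM, where replicates 1 and 2 of Ctrl_TTXwd had 526 and 701) and the highest sum of 12 microglial markers (1982 FPKM, against 819 and 111). A second library that stood apart was Ctrl_TTX replicate 1: it was the highest of its group for 32 of the 49 members (46.6% of all genes), with a median of 0.34 log2 above the other 2 libraries for members and 0.01 for all genes, and 14 members stood at least 1.5 times above them (23.5% of all genes). Its excess over the other 2 libraries rose with locus length across genes (Spearman rho 0.42 over the 49 members and 0.29 over 10729 genes, as a description; 0.55 and 0.30 for KD_TTXwd replicate 1), and members had a median locus of 48.0 kb, against 23.8 kb for all genes. Counts of calls and control medians after withdrawal are given with and without these 2 libraries. So are member changes that moved by more than 1.5 times among those limma called after withdrawal. In the other contrasts this covers changes at an unadjusted limma p below 0.05. Most other member changes are given with all libraries only and may also depend on these 2. The summed glutamatergic markers were 430 to 595 FPKM in KD_TTXwd, 215 to 701 in Ctrl_TTXwd, 767 to 936 in KD_TTX and 1110 to 1185 in Ctrl_TTX, and none of the markers was at 0 in any library. Sums of 9 astrocyte markers were 848 to 1655, 1427 to 2708, 1147 to 3196 and 1404 to 3482 FPKM in the same groups, and microglial sums 45.1 to 597, 111 to 1982, 184 to 623 and 215 to 471. Sums of 10 GABAergic markers were 210 to 310 FPKM in KD_TTXwd, 150 to 381 in Ctrl_TTXwd, 233 to 287 in KD_TTX and 219 to 297 in Ctrl_TTX. In the same order of groups, sums of 5 oligodendrocyte-lineage markers were 45.3 to 69.6, 32.7 to 61.0, 56.2 to 73.5 and 65.8 to 98.0 FPKM, and those of 7 vascular and fibroblast markers 74.5 to 85.4, 42.0 to 63.7, 30.3 to 39.7 and 28.2 to 45.8, with none of these markers at 0. In RNA from whole cultures, fewer cells of a type and less RNA per cell cannot be told apart; the part of cell makeup in the results was not tested.

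All 49 members were detected in every library, from 0.504 to 240.4 FPKM, and 41 averaged at least 10 FPKM over the 12 libraries. The deposited table appears to hold only genes at 1 FPKM or more in Ctrl_TTX replicate 1, so this detection was partly fixed beforehand. Over all 12 libraries the highest averages were those of 3 BAF subunits: Smarce1, which binds nucleosomal DNA, stood at 99.2 FPKM, the ATPase Smarca4 (Brg1) 84.1 and the core subunit Smarcb1 73.1. Brd7, a subunit of the PBAF form, followed at 71.3 FPKM, the H3K9 and H3K36 demethylase Kdm4a at 68.8 and the H3K4 demethylase Kdm1a (Lsd1) at 66.3. The lowest were Arid3b at 1.67 FPKM and Arid3a at 2.85, DNA-binding proteins of the ARID family, and Smarcal1, a helicase that rewinds DNA at stalled forks, at 4.56. The order differed between groups: the first 3 were Smarce1, Kdm4a and Kdm1a in KD_TTXwd, Smarce1, Smarcb1 and Kdm4a in Ctrl_TTXwd, Smarca4, Smarce1 and Smarcb1 in KD_TTX, and Smarce1, Kmt2e and Smarca4 in Ctrl_TTX, where 1 library raised Kmt2e. Neighbours in the order were not tested against each other, and several, such as Smarcb1 and Brd7, differed by less than their SD within groups. The median member stood at 28.8 FPKM in KD_TTXwd, 23.4 in Ctrl_TTXwd, 34.4 in KD_TTX and 37.7 in Ctrl_TTX, against 17.7, 18.3, 18.9 and 19.3 for all genes of the table. In the table's coordinates, build rn5 per the submitters' processing notes, Kdm6b spanned chr10:55743700-55751368, Brd3 chr3:11358265-11378548, Chd5 chr5:173072774-173120770, Smarca4 chr8:22702276-22793519, Arid1a chr5:155592618-155635649, Setd7 chr2:160051125-160093343 and Kdm8 chr1:203825918-203840780. Kdm5c, Arid1b and Kmt2a (also Mll) are not analysed here.

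After TTX withdrawal more genes were called lower than higher in both genotypes, among these members and among all genes tested. The members that fell in both were a histone demethylase (Kdm6b), a BET protein (Brd3), a CHD remodeler (Chd5), 2 BAF subunits (Smarca4 and Arid1a) and a methyltransferase (Setd7). With Grin3a knockdown, 7 of 49 members fell and 2 rose 6 h after withdrawal (adjusted p up to 0.0368), that is 14.3% lower against 9.22% of all genes tested and 4.08% higher against 4.95%. In control neurons, 17 fell and 2 rose (adjusted p up to 0.0479), 34.7% lower against a background of 11.1% and 4.08% higher against 6.61%. These 2 comparisons share no library, but their tests share 1 estimate of spread from all 12 libraries. In both, 6 genes fell: Arid1a, Brd3, Chd5, Kdm6b, Setd7 and Smarca4. They are 85.7% of those lower with knockdown and 35.3% of those lower in control. Kdm8 rose in both, 50.0% of each list. The overlap over all genes was not counted, so whether these shares are particular to the members was not tested. The median member changed by -0.09 log2 with knockdown, against 0.00 for all genes, and by -0.43 in control, against -0.01; the change was below 0 for 30 members with knockdown (49.9% of all genes) and 38 in control (50.8%). The members' median in control was -0.32 without Ctrl_TTX replicate 1, -0.35 without both libraries that stood apart, -0.25 without the 4 libraries numbered 1 and -0.26 with the dependence on locus length removed (all genes -0.02, -0.02, -0.01 and 0.04). KD_TTXwd and KD_TTX did not overlap for 18 members lower (background 23.8%) and 10 higher (20.2%); Ctrl_TTXwd and Ctrl_TTX did not overlap for 24 lower (19.6%) and 3 higher (16.1%). Some neuronal markers also fell: 4 of 12 glutamatergic markers with knockdown and 8 of 12 in control. Of 10 GABAergic markers 2 fell, 1 rose and 7 were not called in each genotype (medians -0.61 with knockdown and -0.67 in control). Of 5 oligodendrocyte-lineage markers 1 fell in control, of 7 vascular and fibroblast markers 1 rose with knockdown, and no astrocyte or microglial marker passed; the part of these cells in the result was not tested. By the authors' deposited table (q below 0.05), 9 fell and 2 rose with knockdown (backgrounds 13.6% and 5.41%), and 17 fell and 2 rose in control (13.9% and 9.03%).

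**Figure D1:**
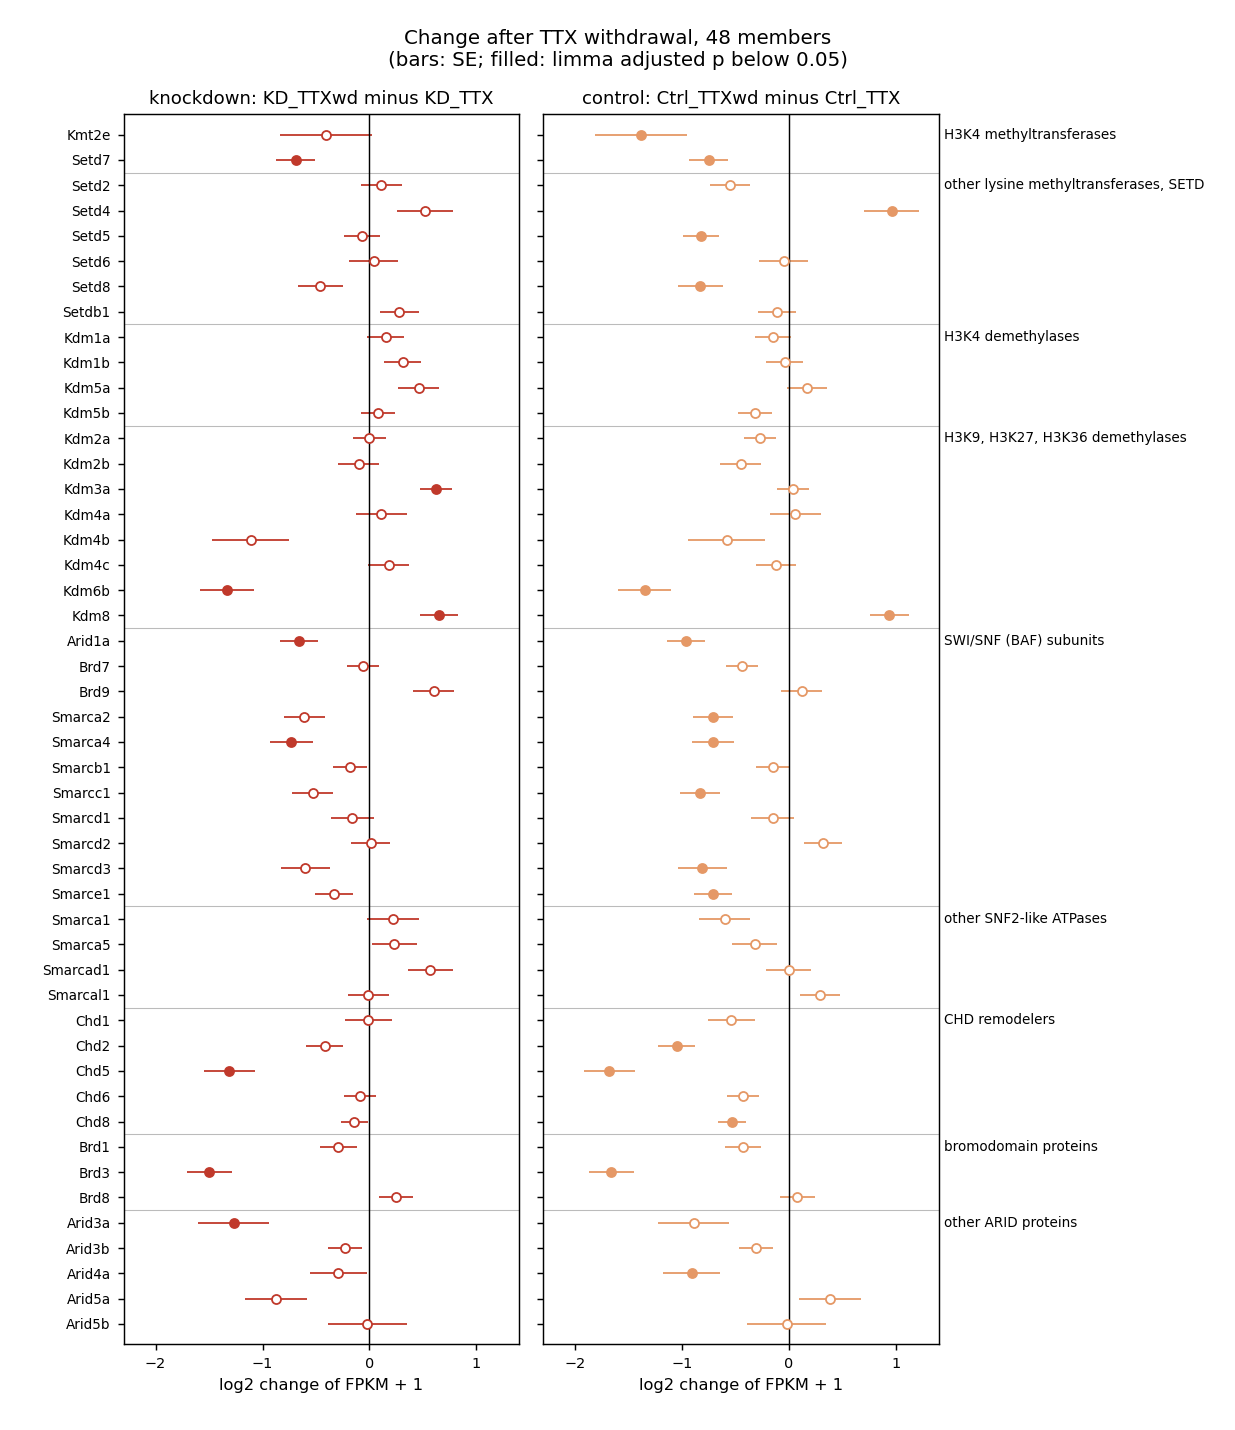
Log2 change of FPKM + 1 after TTX withdrawal for 48 members by role, in knockdown neurons (left panel) and control neurons (right panel). Points are limma estimates with SE, filled where the adjusted p is below 0.05: 9 points are filled with knockdown (7 to the left of 0) and 18 in control (16 to the left).

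The calls depended on single libraries and on the pooled estimate of spread. Of the 9 calls with knockdown, 2 held without any one of the 12 libraries, Brd3 and Chd5. Of the 19 in control, 9 did, Arid1a, Brd3, Chd2, Chd5, Kdm6b, Kdm8, Setd5, Setd7 and Smarcc1. Without all libraries numbered 2, 0 members and 0 of all genes were called in either genotype. Without those numbered 3, 0 members were called in control, and 4 fell and 0 rose with knockdown (4.63% and 1.58% of all genes). Without those numbered 1, 2 fell and 1 rose with knockdown (5.585% and 2.24%), and 11 fell and 2 rose in control (9.84% and 5.47%). Lower calls with knockdown numbered 12 without Ctrl_TTX replicate 1 (15.0% of all genes), which enters that comparison only through the spread, 3 without KD_TTX replicate 1 (4.58%) or 2 (3.19%), 2 without KD_TTXwd replicate 1 (2.45%), 4 without KD_TTXwd replicate 2 (5.18%) or 3 (5.76%), and 12 with the spread taken from the 6 knockdown libraries alone (14.9%). In control they numbered 20 without Ctrl_TTX replicate 1 (12.0% of all genes), 11 without Ctrl_TTXwd replicate 3 (5.87%), 10 without Ctrl_TTXwd replicate 1 (7.54%), and 0 with the spread taken from the 6 control libraries alone (0.0%). Higher calls with knockdown numbered 6 without Ctrl_TTX replicate 1 (9.6%), 4 from the 6 knockdown libraries alone (8.51%), 1 without KD_TTX replicate 1 or 3, Ctrl_TTXwd replicate 1 or KD_TTXwd replicate 3 (1.94% to 4.29%), and 0 without KD_TTX replicate 2 or KD_TTXwd replicate 1 or 2 (0.72% to 1.42%). In control, higher calls numbered 1 when any of Ctrl_TTXwd replicates 1, 2 and 3 was left out (3.08% to 6.20%) and 0 from the 6 control libraries alone (0.00936%). Without both libraries that stood apart, 14 members fell and 7 rose with knockdown (19.4% and 13.6% of all genes), and 16 fell and 1 rose in control (10.02% and 5.09%). In that fit 6 control calls were lost, Arid4a, Chd8, Kmt2e, Setd4, Smarca2 and Smarce1, and 4 gained, Brd1, Brd7, Chd1 and Kdm4b. With the dependence of each library on locus length removed, 10 fell and 4 rose with knockdown (8.5% and 8.88%), and 12 fell and 2 rose in control (9.06% and 7.92%). That correction ended 5 of the 19 control calls, Chd8, Kmt2e, Smarca2, Smarca4 and Smarcd3.

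For the counts by role below, the shares of all genes tested were 9.22% lower and 4.95% higher with knockdown. In control they were 11.1% lower and 6.61% higher. Both members grouped as H3K4 methyltransferases fell in control. Setd7, which monomethylates H3K4 and many other proteins, had 10.4, 9.05 and 10.9 FPKM in KD_TTXwd, against 17.5, 18.0 and 15.2 in KD_TTX. Its control values were 10.6, 8.64 and 11.6 FPKM in Ctrl_TTXwd, against 22.2, 16.9 and 15.0 in Ctrl_TTX. No library after withdrawal reached any library in TTX, and the log2 change was -0.69 (SE 0.18, adjusted p 0.0256) with knockdown and -0.75 (SE 0.18, adjusted p 0.0175) in control. For Setd7 the knockdown call was lost without KD_TTXwd replicate 1, 2 or 3 or KD_TTX replicate 1 or 2, at an adjusted p of 0.0518 to 0.102. Kmt2e, an MLL-family protein that binds methylated H3K4 through its PHD finger, had 43.3, 41.5 and 38.5 FPKM in KD_TTXwd, against 76.8, 52.5 and 40.6 in KD_TTX. Ctrl_TTXwd held 34.6, 42.8 and 33.4 FPKM of it, against 240.4, 62.8 and 60.8 in Ctrl_TTX. Ctrl_TTX replicate 1 stood at 3.89 times the mean of the other 2 libraries; the knockdown groups overlapped and the control groups did not. The change was -0.41 (SE 0.43, adjusted p 0.57) with knockdown and -1.38 (SE 0.43, adjusted p 0.0479) in control. The control call held in 9 of the 25 alternatives and was lost without KD_TTXwd replicate 1, 2 or 3 or Ctrl_TTXwd replicate 1, 2 or 3 or KD_TTX replicate 1, 2 or 3, at an adjusted p of 0.0505 to 0.118. The control change of Kmt2e was -0.74, adjusted p 0.0477, without Ctrl_TTX replicate 1, and it did not pass without both libraries that stood apart (-0.67, adjusted p 0.0978), with the locus length correction (adjusted p 0.0502), with quantile normalization (0.0576) or with median ratio scaling (0.0505).

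Of the 6 other lysine methyltransferases and SETD proteins, 2 fell and 1 rose in control, and none passed with knockdown. Setd5, a SET-domain protein whose loss causes intellectual disability in humans, had 42.3, 42.6 and 38.4 FPKM in KD_TTXwd, against 44.0, 44.9 and 41.1 in KD_TTX, groups that overlapped. In control it had 27.1, 32.0 and 27.7 FPKM in Ctrl_TTXwd, against 68.2, 46.5 and 43.3 in Ctrl_TTX. All 3 Ctrl_TTXwd libraries were below all Ctrl_TTX libraries, with a log2 change of -0.07 (SE 0.17, adjusted p 0.812) with knockdown and -0.82 (SE 0.17, adjusted p 0.0114) in control. Setd8, which monomethylates H4K20, had 9.59, 13.2 and 10.4 FPKM in KD_TTXwd, against 17.2, 11.8 and 18.1 in KD_TTX, and 8.82, 8.98 and 10.7 FPKM in Ctrl_TTXwd, against 22.1, 16.8 and 14.7 in Ctrl_TTX. The knockdown groups overlapped (-0.46, SE 0.21, adjusted p 0.153) and the control groups did not (-0.83, SE 0.21, adjusted p 0.0217). For Setd8 the control call was lost without Ctrl_TTXwd replicate 1, at an adjusted p of 0.061. Setd4, another SET-domain protein, had 16.1, 18.6 and 17.6 FPKM in KD_TTXwd, against 9.13, 12.9 and 13.9 in KD_TTX, and 17.5, 20.1 and 21.2 FPKM in Ctrl_TTXwd, against 5.58, 12.5 and 12.4 in Ctrl_TTX. Every library after withdrawal was above every library in TTX in both genotypes, but the change did not pass with knockdown (0.52, SE 0.26, adjusted p 0.2) and passed in control (0.96, SE 0.26, adjusted p 0.0299). This control call was lost without Ctrl_TTXwd replicate 1, 2 or 3, at an adjusted p of 0.0534 to 0.0835. Its control change was 0.61, adjusted p 0.0379, without Ctrl_TTX replicate 1 and 0.56, adjusted p 0.075, without both libraries that stood apart. Setdb1, which trimethylates H3K9, averaged 42.1 ± 2.39 FPKM in KD_TTXwd, 34.0 ± 1.16 in Ctrl_TTXwd, 34.4 ± 0.562 in KD_TTX and 37.7 ± 11.4 in Ctrl_TTX (SD, n = 3 each). The changes of Setdb1 were 0.28 (SE 0.18, adjusted p 0.313) with knockdown and -0.11 (SE 0.18, adjusted p 0.688) in control. Setd2, the enzyme that trimethylates H3K36, and Setd6, which methylates a subunit of NF-kappaB, passed in neither.

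No H3K4 demethylase passed after withdrawal in either genotype. The log2 changes of Kdm1a, its relative Kdm1b, Kdm5a and Kdm5b were 0.15, 0.31, 0.46 and 0.08 with knockdown, and -0.15, -0.04, 0.17 and -0.32 in control. The 8 demethylases of other marks gave 1 lower and 2 higher with knockdown, and 1 lower and 1 higher in control. Kdm6b (Jmjd3), which removes H3K27 methylation and is known to be induced by activity and inflammatory signals, had 9.25, 14.8 and 10.9 FPKM in KD_TTXwd, against 31.9, 31.1 and 27.8 in KD_TTX. In control it had 17.8, 18.3 and 8.67 FPKM in Ctrl_TTXwd, against 36.5, 40.2 and 36.4 in Ctrl_TTX. Levels in TTX were above those after withdrawal in every library of both genotypes, with changes of -1.33 (SE 0.25, adjusted p 0.00841) with knockdown and -1.35 (SE 0.25, adjusted p 0.00743) in control. For Kdm6b the knockdown call was lost without KD_TTXwd replicate 1, at an adjusted p of 0.0512. Kdm8 (Jmjd5), first described as an H3K36 demethylase, moved the other way, with 8.42, 9.53 and 8.29 FPKM in KD_TTXwd, against 4.62, 5.07 and 5.92 in KD_TTX, and 8.74, 8.37 and 9.16 FPKM in Ctrl_TTXwd, against 2.86, 4.63 and 4.99 in Ctrl_TTX. The groups did not overlap in either genotype, and the changes were 0.65 (SE 0.18, adjusted p 0.0368) with knockdown and 0.94 (SE 0.18, adjusted p 0.00867) in control. For Kdm8 the knockdown call was lost without KD_TTXwd replicate 1, 2 or 3 or Ctrl_TTXwd replicate 1 or KD_TTX replicate 1 or 2, at an adjusted p of 0.0528 to 0.118.

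Kdm3a, which demethylates H3K9, had 34.6, 36.9 and 31.6 FPKM in KD_TTXwd, against 23.5, 21.6 and 20.9 in KD_TTX, and 30.5, 36.9 and 36.9 FPKM in Ctrl_TTXwd, against 39.5, 31.1 and 30.9 in Ctrl_TTX. Its 3 KD_TTX libraries were the lowest of all 12, and it rose with knockdown (0.62, SE 0.15, adjusted p 0.0198), whereas the control groups overlapped (0.04, SE 0.15, adjusted p 0.859). For Kdm3a the knockdown call was lost without KD_TTXwd replicate 1 or 2 or KD_TTX replicate 2 or 3, at an adjusted p of 0.0537 to 0.0824. Kdm4b, a demethylase of trimethylated H3K9, had 12.8, 18.0 and 17.1 FPKM in KD_TTXwd, against 33.1, 36.9 and 36.1 in KD_TTX, and 30.4, 26.5 and 13.1 FPKM in Ctrl_TTXwd, against 18.0, 45.5 and 45.01 in Ctrl_TTX. The knockdown groups did not overlap, but the change of -1.11 (SE 0.36, adjusted p 0.0598) did not pass limma's test; the authors' deposited table gives -1.15 (q 0.00102). The control groups overlapped (-0.58, SE 0.36, adjusted p 0.28), with Ctrl_TTX replicate 1 the lowest of its group. The control fall of Kdm4b passed without both libraries that stood apart. Kdm2a, Kdm2b, Kdm4a and Kdm4c, which act on H3K36 or H3K9, passed in neither genotype.

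**Figure D2:**
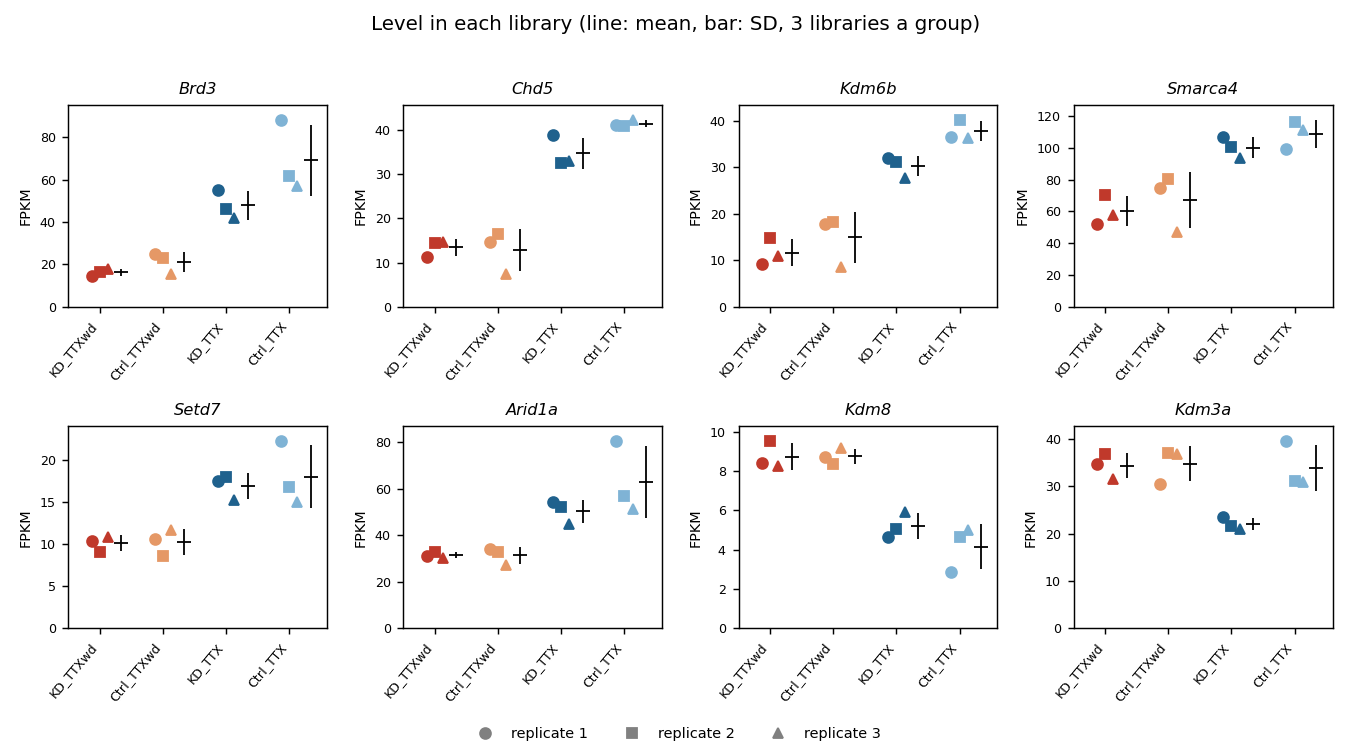
FPKM in each library for 7 members called in the same direction after withdrawal in both genotypes and for Kdm3a, with replicate numbers as symbols and the group mean and SD beside them. The first 6 panels are lower after withdrawal in every library, Kdm8 is higher in every library, and the 3 KD_TTX libraries of Kdm3a lie below the other 9.

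Of the 11 members of the BAF complex, the role with the most genes, 2 fell with knockdown and 6 fell in control, and none rose. Of all genes tested, 9.22% fell with knockdown and 11.1% in control. Smarca4, its main ATPase, had 52.0, 70.5 and 57.8 FPKM in KD_TTXwd, against 107, 100.2 and 93.3 in KD_TTX. In control it had 74.5, 80.1 and 47.4 FPKM in Ctrl_TTXwd, against 99.0, 116 and 111 in Ctrl_TTX, with Ctrl_TTXwd replicate 3 the lowest library. Neither pair of groups overlapped, and the changes were -0.73 (SE 0.20, adjusted p 0.0322) with knockdown and -0.71 (SE 0.20, adjusted p 0.0324) in control. The knockdown call was lost without KD_TTXwd replicate 1 or 3 or KD_TTX replicate 1, 2 or 3, at an adjusted p of 0.0552 to 0.14. For Smarca4 the control call was lost without Ctrl_TTXwd replicate 3 or KD_TTX replicate 2 or Ctrl_TTX replicate 2 or 3, at an adjusted p of 0.0535 to 0.0883. It also missed the threshold in control with the locus length correction (-0.52, adjusted p 0.122) and with quantile normalization (-0.58, adjusted p 0.06). Arid1a, the large DNA-binding subunit that defines canonical BAF, had 31.0, 32.9 and 30.3 FPKM in KD_TTXwd, against 54.1, 52.1 and 44.8 in KD_TTX, and 34.0, 32.8 and 27.2 FPKM in Ctrl_TTXwd, against 80.3, 56.6 and 51.3 in Ctrl_TTX. The groups were again separate in both genotypes (log2 change -0.66, SE 0.18, adjusted p 0.0299, with knockdown and -0.96, SE 0.18, adjusted p 0.00701, in control). For Arid1a the knockdown call was lost without KD_TTXwd replicate 1, 2 or 3 or KD_TTX replicate 1 or 2, at an adjusted p of 0.069 to 0.108. Smarca2 (Brm), the alternative ATPase, had 39.9, 40.0 and 30.9 FPKM in KD_TTXwd, against 62.3, 53.0 and 54.3 in KD_TTX, and 37.6, 36.3 and 33.6 FPKM in Ctrl_TTXwd, against 80.9, 51.2 and 49.6 in Ctrl_TTX. No library after withdrawal reached one in TTX; with knockdown the change was -0.61 (SE 0.19, adjusted p 0.0569), which missed the threshold, and in control -0.71 (SE 0.19, adjusted p 0.0297), a call that was lost without Ctrl_TTXwd replicate 1, 2 or 3, at an adjusted p of 0.0515 to 0.0824. That call was also lost with the locus length correction (-0.46, adjusted p 0.0572) and without both libraries that stood apart (-0.44, adjusted p 0.0873).

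Smarcc1 (BAF155), a scaffold subunit, had 38.6, 35.6 and 30.8 FPKM in KD_TTXwd, against 56.4, 47.9 and 48.4 in KD_TTX, and 43.4, 48.5 and 45.7 FPKM in Ctrl_TTXwd, against 113, 69.2 and 70.4 in Ctrl_TTX. Smarcd3 (BAF60c), an accessory subunit used in heart and neurons, had 25.6, 39.7 and 26.8 FPKM in KD_TTXwd, against 47.1, 45.7 and 45.7 in KD_TTX, and 27.2, 30.9 and 18.53 FPKM in Ctrl_TTXwd, against 34.6, 47.8 and 53.7 in Ctrl_TTX. Smarce1 (BAF57) had 74.5, 83.0 and 66.8 FPKM in KD_TTXwd, against 106, 87.0 and 90.7 in KD_TTX, and 79.3, 99.1 and 78.0 FPKM in Ctrl_TTXwd, against 180.4, 122 and 124 in Ctrl_TTX. For these 3 subunits every library after withdrawal was below every library in TTX of its genotype, and Ctrl_TTX replicate 1 was the highest for Smarcc1 and Smarce1 and the lowest of its group for Smarcd3. The knockdown changes, -0.53 (adjusted p 0.0843), -0.60 (adjusted p 0.103) and -0.33 (adjusted p 0.245), did not pass. The control changes passed, at -0.83 (SE 0.19, adjusted p 0.0156) for Smarcc1, -0.81 (SE 0.23, adjusted p 0.0347) for Smarcd3 and -0.71 (SE 0.18, adjusted p 0.0245) for Smarce1. The control call of Smarcd3 was lost without Ctrl_TTXwd replicate 1 or 3 or KD_TTX replicate 2 or Ctrl_TTX replicate 2 or 3, at an adjusted p of 0.0558 to 0.111, and that of Smarce1 was lost without Ctrl_TTXwd replicate 1 or 3, at an adjusted p of 0.07 to 0.0736. Smarcd3 also missed the threshold with the locus length correction (-0.76, adjusted p 0.0542), and Smarce1 without both libraries that stood apart (-0.47, adjusted p 0.0871). Brd9, of the non-canonical BAF form, had 55.4, 63.6 and 53.5 FPKM in KD_TTXwd, against 37.8, 34.4 and 40.4 in KD_TTX, and 44.9, 51.2 and 42.5 FPKM in Ctrl_TTXwd, against 58.5, 35.3 and 36.4 in Ctrl_TTX. KD_TTXwd was above KD_TTX in every library with 0.60 (SE 0.19, adjusted p 0.0561), which missed the threshold, while the authors' deposited table gives 0.62 (q 0.0492); the control groups overlapped (0.12, SE 0.19, adjusted p 0.675). Brd7, Smarcb1, Smarcd1 and Smarcd2 passed in neither genotype, with changes of -0.06, -0.18, -0.16 and 0.01 with knockdown and -0.44, -0.15, -0.15 and 0.32 in control.

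Of the 14 BAF subunits tested that the naming rule does not cover, 5 fell with knockdown and 8 in control, and none rose. The share of all genes that fell was 9.22% with knockdown and 11.1% in control. The median change of these subunits was -0.73 with knockdown and -0.91 in control. Ss18l1 (CREST), Dpf1 (BAF45b) and Dpf3 (BAF45c) belong to the neuronal form of the complex. Ss18l1 changed by -1.83 (SE 0.38, adjusted p 0.012) with knockdown and -1.76 (SE 0.38, adjusted p 0.0126) in control, Dpf3 by -1.51 (SE 0.27, adjusted p 0.00692) with knockdown and -2.08 (SE 0.27, adjusted p 0.00249) in control. Dpf1 changed by -1.22 (SE 0.33, adjusted p 0.033) with knockdown and -1.25 (SE 0.33, adjusted p 0.0278) in control. Gltscr1 (Bicra), of non-canonical BAF, fell by the same tests (-1.35, SE 0.25, adjusted p 0.00754, with knockdown, and -1.58, SE 0.25, adjusted p 0.00433, in control). Bcl11a, a zinc finger protein of cortical and hippocampal neurons that binds BAF, did not pass with knockdown (-1.18, SE 0.37, adjusted p 0.0552) and passed in control (-2.12, SE 0.37, adjusted p 0.0059). Ss18 and Dpf2, counterparts used before neurons mature or in all cells, did not pass: 0.14 (adjusted p 0.596) and -0.01 (adjusted p 0.971) with knockdown, 0.19 (adjusted p 0.448) and 0.27 (adjusted p 0.206) in control. The progenitor subunits Actl6a and Phf10 had 0.42 (adjusted p 0.247) and 0.01 (adjusted p 0.988) with knockdown and 0.50 (adjusted p 0.149) and -0.53 (adjusted p 0.0659) in control. Actl6b (BAF53b), which replaces Actl6a in neurons, did not pass either (-0.28, adjusted p 0.69, with knockdown, and -0.21, adjusted p 0.745, in control). Members of this list and the summed glutamatergic markers were both lower after withdrawal; the part of the one in the other was not tested.

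**Figure D3:**
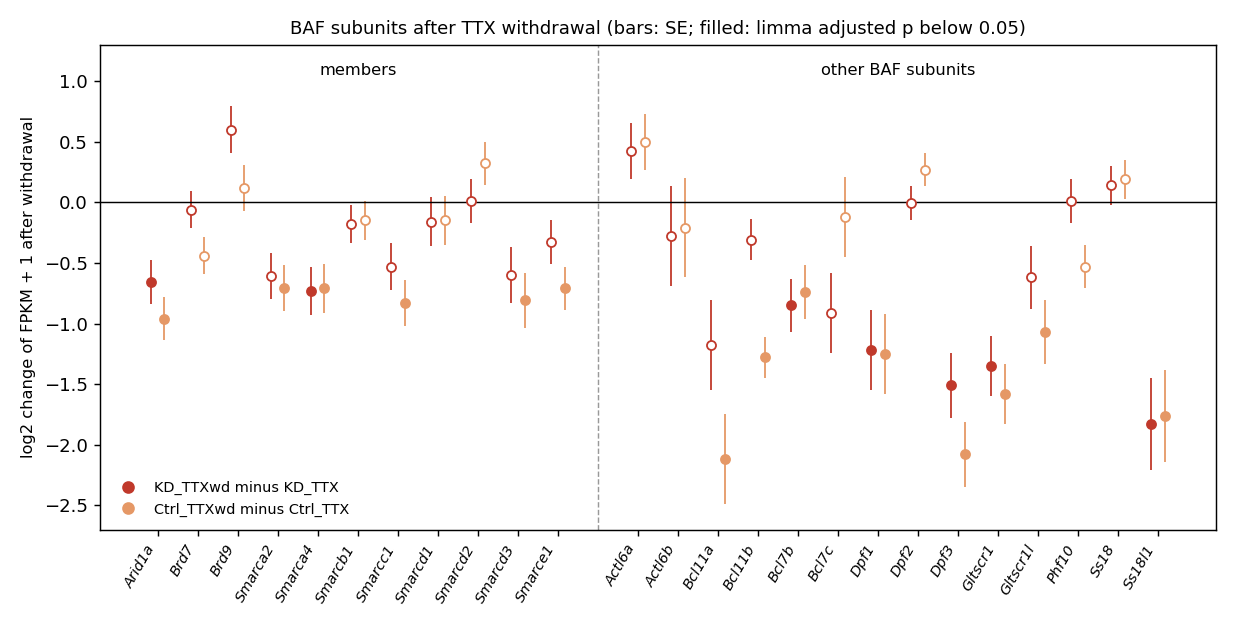
Log2 change of FPKM + 1 after withdrawal, with SE, for the 11 BAF members and 14 BAF subunits outside the naming rule, knockdown left of control for each gene and filled where the adjusted p is below 0.05. Ss18l1, Dpf3, Dpf1, Gltscr1 and Bcl7b are filled in both genotypes and lie below 0, and Ss18, Dpf2, Actl6a and Actl6b are open.

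Among CHD remodelers, which carry chromodomains beside their ATPase, 1 of 5 fell with knockdown and 3 in control. Chd5, a neuronal remodeler that can take part in the NuRD complex, had 11.2, 14.5 and 14.6 FPKM in KD_TTXwd, against 38.7, 32.4 and 33.0 in KD_TTX. In control it had 14.6, 16.5 and 7.43 FPKM in Ctrl_TTXwd, against 41.1, 40.8 and 42.2 in Ctrl_TTX. The libraries after withdrawal lay far below those in TTX, with changes of -1.31 (SE 0.24, adjusted p 0.00729) with knockdown and -1.68 (SE 0.24, adjusted p 0.00332) in control. Chd2, a remodeler linked to epilepsy in humans, had 21.7, 19.2 and 18.53 FPKM in KD_TTXwd, against 26.5, 28.9 and 25.0 in KD_TTX, and 14.8, 15.3 and 16.2 FPKM in Ctrl_TTXwd, against 43.1, 31.2 and 26.7 in Ctrl_TTX. Both pairs of groups were separate, and the change did not pass with knockdown (-0.42, SE 0.17, adjusted p 0.122) and passed in control (-1.05, SE 0.17, adjusted p 0.00474). Chd8, the autism-linked remodeler that binds active promoters, averaged 33.6 ± 2.73 FPKM in KD_TTXwd, 28.2 ± 2.14 in Ctrl_TTXwd, 37.1 ± 1.71 in KD_TTX and 41.1 ± 3.57 in Ctrl_TTX (SD, n = 3 each). Its change was -0.14 (SE 0.13, adjusted p 0.502) with knockdown and -0.53 (SE 0.13, adjusted p 0.0209) in control, where the call was lost without Ctrl_TTXwd replicate 1 or 3, at an adjusted p of 0.0573 to 0.0602. Chd8 also missed the threshold in control with the locus length correction (-0.38, adjusted p 0.0539) and without both libraries that stood apart (-0.43, adjusted p 0.0537). Chd1 and Chd6 passed in neither genotype. The 4 other SNF2-like ATPases also passed in neither: Smarca1 and Smarca5 are ISWI motors that space nucleosomes, Smarcad1 acts at replicated and damaged DNA, and their changes and that of Smarcal1 ran from -0.01 to 0.57 with knockdown and from -0.60 to 0.29 in control. Smarca1 had 31.8, 31.2 and 23.8 FPKM in KD_TTXwd, against 27.1, 22.4 and 24.03 in KD_TTX, and 15.9, 22.9 and 16.4 FPKM in Ctrl_TTXwd, against 42.0, 21.8 and 24.2 in Ctrl_TTX. Its groups overlapped in both genotypes, with Ctrl_TTX replicate 1 the highest of all libraries. In control, limma gave -0.60 (SE 0.24, adjusted p 0.102), and the authors' deposited table -0.67 (q 0.0434). Over the 25 alternatives this control change of Smarca1 ran from -0.94 to -0.23 and never passed.

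Of the bromodomain proteins, Brd3, a BET protein that binds acetylated histones and promotes transcription, fell in both genotypes. Brd3 had 14.5, 16.4 and 17.8 FPKM in KD_TTXwd, against 55.3, 46.4 and 41.9 in KD_TTX. Its control values were 24.8, 22.9 and 15.7 FPKM in Ctrl_TTXwd, against 88.2, 61.9 and 57.1 in Ctrl_TTX. The lowest library in TTX was well above the highest after withdrawal in both genotypes, and the changes were -1.50 (SE 0.21, adjusted p 0.00368) with knockdown and -1.66 (SE 0.21, adjusted p 0.00248) in control. Brd1, which joins histone acetyltransferase complexes, and Brd8, of the TIP60 complex, passed in neither.

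The other ARID proteins, which bind AT-rich DNA, gave 1 lower call of 5 in each genotype. Arid3a was low, at 0.951, 0.504 and 1.39 FPKM in KD_TTXwd, against 4.78, 4.66 and 1.99 in KD_TTX. Ctrl_TTXwd held 2.42, 0.929 and 2.95 FPKM, against 5.21, 4.86 and 3.56 in Ctrl_TTX. Both pairs of groups were separate. It passed with knockdown (-1.27, SE 0.33, adjusted p 0.0268) and not in control (-0.89, SE 0.33, adjusted p 0.0802). The knockdown call of Arid3a was lost without KD_TTXwd replicate 1 or 2 or KD_TTX replicate 1 or 2, at an adjusted p of 0.093 to 0.108. The authors' deposited table calls it in neither genotype (-2.01, q 0.484, with knockdown, and -1.11, q 0.757, in control). Arid4a, which binds the retinoblastoma protein, had 12.9, 12.4 and 11.6 FPKM in KD_TTXwd, against 18.0, 14.8 and 13.5 in KD_TTX, and 10.4, 13.4 and 11.2 FPKM in Ctrl_TTXwd, against 39.0, 16.9 and 17.6 in Ctrl_TTX. Ctrl_TTX replicate 1 was more than 1.5 times the other 2 libraries, and the groups were separate in both genotypes. The change did not pass with knockdown (-0.29, SE 0.27, adjusted p 0.498) and passed in control (-0.91, SE 0.27, adjusted p 0.0387), where it was lost without KD_TTXwd replicate 1, 2 or 3 or Ctrl_TTXwd replicate 1 or 3 or KD_TTX replicate 2, at an adjusted p of 0.0545 to 0.104. The control change of Arid4a was -0.54, adjusted p 0.0413, without Ctrl_TTX replicate 1 and -0.51, adjusted p 0.0729, without both libraries that stood apart. Arid5a, which binds and stabilizes inflammatory mRNAs, had 3.04, 4.62 and 5.33 FPKM in KD_TTXwd, against 5.96, 13.0 and 7.92 in KD_TTX, and 11.8, 8.48 and 7.62 FPKM in Ctrl_TTXwd, against 7.73, 8.28 and 4.93 in Ctrl_TTX. The knockdown groups were separate and the control groups overlapped, with changes of -0.87 (SE 0.29, adjusted p 0.0683) with knockdown and 0.38 (SE 0.29, adjusted p 0.385) in control; the authors' deposited table calls the fall with knockdown (-1.05, q 0.0126). Arid3b and Arid5b passed in neither genotype.

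Whether the withdrawal response differed between the genotypes was tested directly, as the knockdown change minus the control change. No member passed (lowest adjusted p 0.492; limma called 0 of all 10689 genes in either direction, a background of 0.0%). At an unadjusted p below 0.05, 5 members were higher (background 5.46%) and 1 lower (4.36%). The difference was 0.74 for Setd5 (unadjusted p 0.0103), 0.83 for Smarca1 (0.0325), 0.66 for Setd2 (0.0306), 0.63 for Chd2 (0.0235), 0.58 for Kdm3a (0.0178) and -1.24 for Arid5a (0.0112). For 39 of 49 members the difference was above 0, against 49.7% of all genes, with a median of 0.30 for members and 0.00 for all genes; without Ctrl_TTX replicate 1 the members' median was 0.20 and without both libraries that stood apart 0.17, with 31 of 49 above 0. Without Ctrl_TTX replicate 1 the difference was 0.43 for Setd2 (unadjusted p 0.0383) and 0.55 for Smarca1 (0.0563). The larger number of falls in control is not shown to differ from that with knockdown for any single member.

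With Grin3a knockdown no member passed limma's adjusted test. Grin3a, the target, did not pass it either (adjusted p 0.936 in TTX and 0.301 after withdrawal). The test could thus miss a change of the target's size, and the absence of calls does not show that members were unchanged. In TTX, 0 members passed in either direction (background 0.0%), and at an unadjusted p below 0.05 there were 0 higher (1.09% of all genes) and 4 lower (2.76%): Kdm3a, Smarcc1, Smarce1 and Brd3. KD_TTX lay below Ctrl_TTX without overlap for 14 members, 28.6% against 7.91% of all genes, and above it for 0 (3.94%). The log2 change was below 0 for 40 of the 49, against 51.4% of all genes, with a median of -0.16 for members and -0.01 for all genes. Without Ctrl_TTX replicate 1 it was below 0 for 35 of the 49, with a median of -0.11 for members and -0.02 for all genes. Without that library, the groups were separate for 20 members lower (17.1% of all genes) and 4 higher (9.65%). Kdm3a had the smallest p, with -0.59 (SE 0.15, unadjusted p 0.0019, adjusted p 0.936), and all 3 KD_TTX libraries below all 3 Ctrl_TTX libraries. Smarcc1 had -0.68 (unadjusted p 0.00403), Smarce1 -0.57 (0.0101) and Brd3 -0.50 (0.0359), each with separate groups and with Ctrl_TTX replicate 1 the highest library. Without that library these changes were -0.45 (unadjusted p 0.00749) for Smarcc1, -0.38 (0.0344) for Smarce1 and -0.32 (0.141) for Brd3. The authors' deposited table calls 3 members lower, 1.83% of all genes being so called, among them Kmt2e at -1.10 (q 0.00773) and Smarcc1 at -0.73 (q 0.022). For Kmt2e the groups overlapped, and limma gave -0.82 (SE 0.43, adjusted p 0.936). Ctrl_TTX replicate 1 stood at 240.4 FPKM, and the mean of KD_TTX was 56.6 FPKM, against 61.8 in the other 2 Ctrl_TTX libraries. Without that replicate the change of Kmt2e was -0.17 (unadjusted p 0.465).

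After withdrawal, limma again called 0 members with knockdown (1 gene of all tested, 0.00936% lower and 0.0% higher). At an unadjusted p below 0.05, 2 members were higher (5.85% of all genes), Setd5 and Smarca1, and 1 was lower (6.09%), Arid5a. The log2 change was below 0 for 20 of the 49, against 52.1% of all genes. KD_TTXwd lay above Ctrl_TTXwd without overlap for 9 members (background 10.8%) and below it for 2, Arid5a and Smarcc1 (9.03%). For Arid5a the change was -0.96 (SE 0.29, unadjusted p 0.00693, adjusted p 0.302), and the highest KD_TTXwd library was below the lowest Ctrl_TTXwd library. Setd5 had 0.49 (unadjusted p 0.0143) and Smarca1 0.63 (0.0228), each with all 3 KD_TTXwd libraries above all 3 Ctrl_TTXwd libraries. The authors' deposited table calls Smarca1 higher, at 0.65 (q 0.0473), and Arid5a lower, at -1.11 (q 0.00387), 2.04% of members each, against 1.61% and 5.97% of all genes. Without both libraries that stood apart, limma called 3.78% of all genes lower and 1.16% higher, and 1 member lower (2.04% of members), Kdm4b, at -0.81 (SE 0.15, adjusted p 0.0305); Arid5a did not pass. Smarcc1 was lower with knockdown in both states, without overlap, at -0.38 after withdrawal (unadjusted p 0.0684) and -0.68 in TTX (unadjusted p 0.00403).

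**Figure D4:**
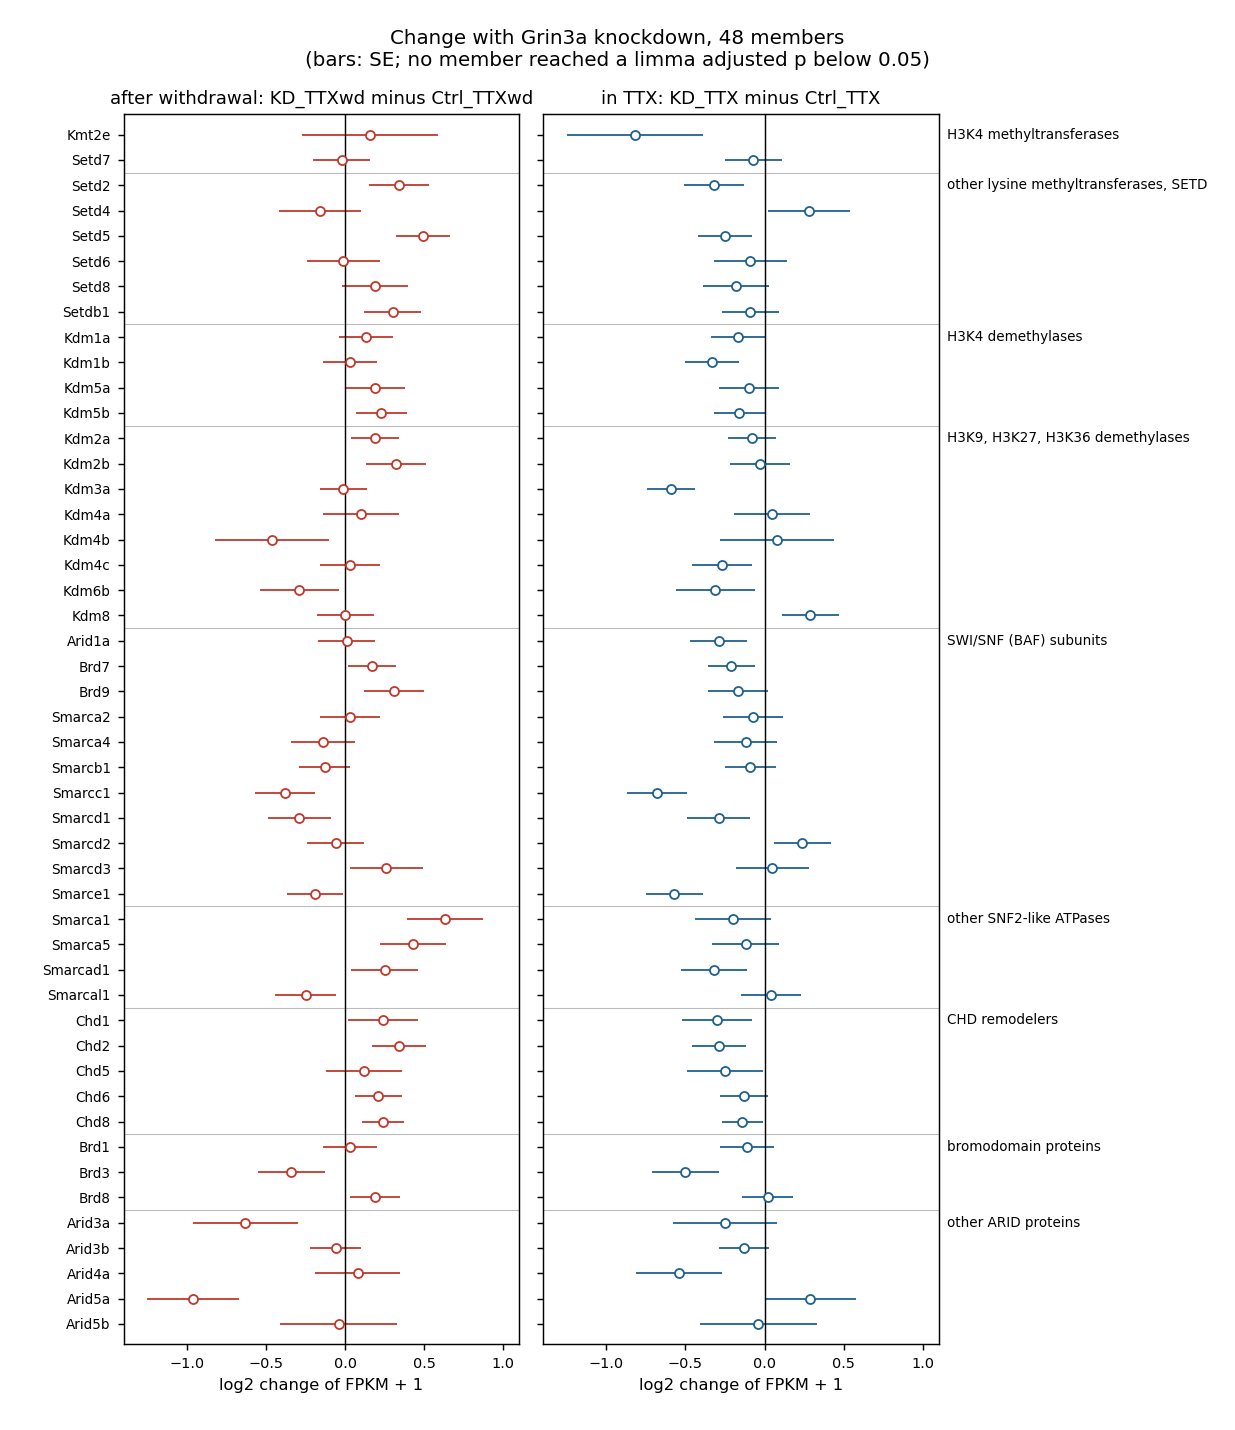
Log2 change of FPKM + 1 with Grin3a knockdown for 48 members by role, after withdrawal (left panel) and in TTX (right panel), as limma estimates with SE. All points are open because no adjusted p was below 0.05, and 19 of 48 lie left of 0 after withdrawal and 39 of 48 in TTX.

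**Figure D5:**
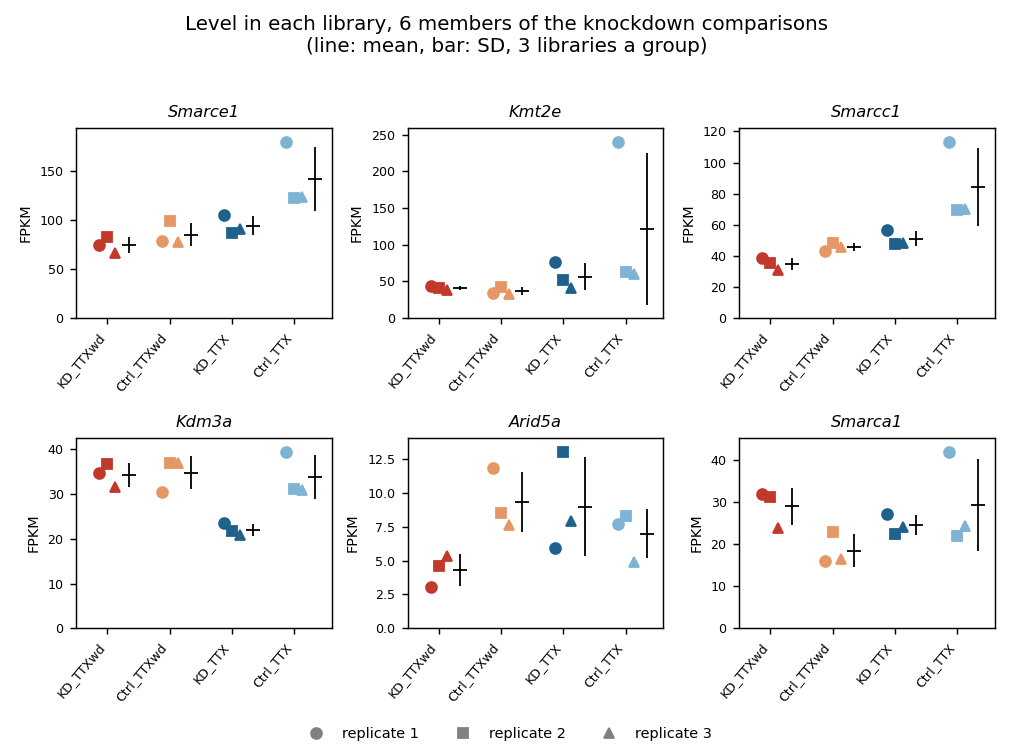
FPKM in each library for 6 members named in the knockdown comparisons, with replicate numbers as symbols and the group mean and SD beside them. Ctrl_TTX replicate 1 stands alone at 240.4 FPKM for Kmt2e, and for Arid5a the 3 KD_TTXwd libraries lie below all Ctrl_TTXwd libraries.

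Over all 4 comparisons of groups, limma called 21 members and 23 were called in the authors' deposited table; 19 were called by both, 2 by limma only (Arid3a and Chd8) and 4 by the authors only (Arid5a, Brd9, Kdm4b and Smarca1). The other 24 members were called by neither. They include all 4 H3K4 demethylases, 3 of the SETD and SETDB group (Setd2, Setd6 and Setdb1), Kdm2a, Kdm2b, Kdm4a and Kdm4c, the BAF subunits Brd7, Smarcb1, Smarcd1 and Smarcd2, the ATPases Smarca5, Smarcad1 and Smarcal1, Chd1 and Chd6, Brd1 and Brd8, and Arid3b and Arid5b. Their log2 changes ran from -0.29 to 0.57 for withdrawal with knockdown, from -0.55 to 0.32 for withdrawal in control, from -0.29 to 0.43 for knockdown after withdrawal and from -0.33 to 0.24 for knockdown in TTX.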

How the data were processed

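Poly(A) RNA libraries (stranded mRNA kit, 50 nt single-end reads, per the labels' protocols) were made from 12 samples, 3 in each of 4 groups, placed in groups by their titles. The deposited table holds FPKM per gene and library, made by the authors; Trimmomatic, TopHat2, Cufflinks, Cuffdiff and build rn5 are named in the submitters' processing notes, and versions and roles are not given in the sources used here. The authors' log2 fold changes and q-values between groups are in the same deposited table and are printed as theirs. The lowest FPKM in Ctrl_TTX replicate 1 is 1.0, whereas 10 of the 12 libraries reach 0, so genes appear to have been kept on that library.

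Of 10730 genes, 1 was left out because a group value differed from its library mean by more than 1%; 18 symbols had turned into dates, none of which was taken as a member. Genes at 1 FPKM or more in at least 3 libraries (10689) were fitted as log2(FPKM + 1) with limma 3.58.1 in R 4.3.3 (1 coefficient per group, 8 residual degrees of freedom, trend in the variance), with Benjamini-Hochberg adjustment over all genes tested and a threshold of 0.05, in 5 contrasts; the steps were tested on simulated data. Tables and figures were made with Python 3.11.15 and matplotlib 3.10.9. The members, lists and tests were chosen with earlier results of these data known. Members called by limma or by the authors in any comparison are named, 23 of them with values per library, and 1 counted member is not reported here; Chd8 and Setdb1 are named by rule, and of each related gene list up to 4 called genes by size of change. Uncalled BAF subunits were named after their values were seen.

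Libraries with the same replicate number deviated together between KD_TTX and Ctrl_TTX (correlations 0.617, 0.436 and 0.667); the series' design calls the controls matched without saying by what, so this pairing is read from the data. Each other comparison had at least 1 pair not over 0.1. In all, 25 alternatives were fitted, among them other scalings and filters, a correction for locus length, a replicate block and leaving out libraries; leaving out the 2 libraries that stood apart was chosen after seeing the data.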

Additional observations from a re-analysis of the deposited data

How the results depend on the processing

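Only member changes called by limma or in the authors' deposited table were followed here. Of these, 766 values under the alternatives kept their direction and side of the threshold, 166 no longer passed, 17 newly passed and 0 reversed. Changes called by neither were not counted, so the 0 does not cover them. With only the libraries compared in the fit, members called after withdrawal numbered 4 higher and 12 lower with knockdown and 0 higher and 0 lower in control. The locus length correction gave 4 higher with knockdown. Without both Ctrl_TTX replicate 1 and Ctrl_TTXwd replicate 3, they numbered 7 higher and 14 lower with knockdown and 1 higher in control, and 1 member was lower with knockdown after withdrawal; the cause was not tested. Over all genes, that fit called 528 genes between KD_TTXwd and Ctrl_TTXwd, against 1 with all libraries. Leaving out single libraries or a replicate number gave, after withdrawal, 0 to 6 higher and 0 to 12 lower with knockdown, and 0 to 2 higher and 0 to 20 lower in control, and 0 to 0 in the knockdown comparisons and in the difference of the responses. The log2 change of Grin3a ran from -1.95 to -1.04 after withdrawal and from -1.71 to -1.29 in TTX. With the replicate number as a block (paired fit), 2 members were higher and 9 lower after withdrawal with knockdown (5.17% and 9.49% of all genes). In control 2 were higher and 17 lower (7.64% and 11.7%), and 0 passed with knockdown in TTX. FPKM holds no read depth, so counting error could not be separated from the spread between libraries, which rests on 3 libraries a group.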

Other observations

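Genes outside the naming rule that work with these enzymes were followed in 6 further lists, each with limma's adjusted p. Over all genes tested, 9.22% fell and 4.95% rose after withdrawal with knockdown, and 11.1% fell and 6.61% rose in control. Of 9 NuRD subunits, which pair histone deacetylases with a CHD remodeler, 3 fell after withdrawal with knockdown and 3 in control. With knockdown these were Mbd3 at -1.39 (adjusted p 0.0184), Gatad2a at -1.12 (adjusted p 0.00727) and Mta1 at -0.93 (adjusted p 0.00614); in control they were Gatad2b at -1.34 (adjusted p 0.00942), Mta1 at -0.93 (adjusted p 0.00569) and the deacetylase Hdac2 at -0.64 (adjusted p 0.0295). Mta1 was the gene called in both. For Gatad2b, Ctrl_TTX replicate 1 held 72.7 FPKM, against 34.45 and 33.8 in the other Ctrl_TTX libraries. Mbd3 did not pass in control, where Ctrl_TTX replicate 1 held 26.8 FPKM, against 50.3 and 55.0 in the other Ctrl_TTX libraries. Of 15 other histone methyltransferases, 2 fell and 1 rose with knockdown, and 5 fell and 1 rose in control. Dot1l, the H3K79 methyltransferase, fell in both genotypes, at -1.10 (adjusted p 0.0126) with knockdown and -0.83 (adjusted p 0.0317) in control. The H3K9 methyltransferase Ehmt2 (G9a) fell with knockdown at -1.44 (adjusted p 0.0164), and its partner Ehmt1 in control at -0.58 (adjusted p 0.0199). Ehmt2 had 35.6, 25.7 and 15.2 FPKM in Ctrl_TTXwd, against 28.1, 52.6 and 48.3 in Ctrl_TTX, with Ctrl_TTX replicate 1 the lowest of its group. These control groups overlapped. Suv420h1, which methylates H4K20, rose with knockdown at 0.48 (adjusted p 0.0345), and Suv39h1, which trimethylates H3K9, rose in control at 0.56 (adjusted p 0.0397). Whsc1l1 and Prdm2 fell in control, at -0.87 (adjusted p 0.00836) and -0.75 (adjusted p 0.0419). Ctrl_TTX replicate 1 held 40.3 FPKM of Whsc1l1, against 28.75 and 27.6 in the other Ctrl_TTX libraries, and 53.7 of Prdm2, against 28.5 and 28.9.

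Of 5 other demethylases, Phf2 fell in both genotypes, at -0.75 (adjusted p 0.0146) with knockdown and -0.65 (adjusted p 0.0232) in control. Among 11 COMPASS and MLL partners, which work with H3K4 methyltransferases, none passed with knockdown and 2 fell in control, Ncoa6 at -1.18 (adjusted p 0.0128) and Psip1 at -1.13 (adjusted p 0.0292). Ctrl_TTX replicate 1 held 70.3 FPKM of Ncoa6, against 33.4 and 30.9 in the other Ctrl_TTX libraries, and 415.9 of Psip1, against 173.5 and 185.8. Changes of the related lists without that library are not given here. Among 9 ISWI and INO80 family remodelers, none passed with knockdown and 3 fell in control, Baz2a at -0.65 (adjusted p 0.0331), Ep400 at -0.49 (adjusted p 0.028) and Baz1b at -0.42 (adjusted p 0.0497). None of 9 subunits of Polycomb repressive complex 2, which methylates H3K27, passed in either genotype. Over these 6 lists and the BAF subunits outside the rule, 72 of 99 listed genes were tested. With knockdown 11 fell and 1 rose (9.22% and 4.95% of all genes), and in control 22 fell and 1 rose (11.1% and 6.61%). None passed in the knockdown comparisons or in the difference of the responses.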
